A study of Homo sapiens with 15 samples.

Results

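PAX2, PAX8, SIX2, SALL1, WT1, EYA1, LHX1 and GATA3 are transcription regulators of the embryonic kidney, and their RNA was followed in HEK293T cells, a human embryonic kidney cell line. The 8 genes were named for their role in kidney development, with earlier results of these data known, and were found by their symbols in the GENCODE v29 annotation, out of the 58735 genes listed for each library. The study knocked out candidate genes in supporting cells that are cultured with tumor cells, to ask which of them change drug resistance. RNA of the supporting HEK293T cells was sequenced from 15 libraries in 5 groups of 3. The Non-target group, which the labels call WT, carried the lentiCRISPRv2 vector with a guide that has no target, and the RHBDD2-CKO, MLPH-CKO, MAGI2-CKO and C9orf89-CKO groups carried the same vector with a guide to the named gene. All 5 groups therefore carry Cas9 and a guide, had been selected with puromycin, and were clones raised by limiting dilution. The knockout groups (CKO stands for CRISPR knockout) are called the C9orf89, MAGI2, MLPH and RHBDD2 clones here. Each group is 1 clone, and its 3 libraries come from 3 culture wells, so that p-values measure the spread between wells and not between independent clones of 1 guide. The 4 comparisons with Non-target share the same 3 control libraries. A change seen in all 4 clones therefore cannot be told apart from a trait of the Non-target clone itself.

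The kidney arises from the nephric duct, its outgrowth the ureteric bud, and the metanephric mesenchyme around the bud. SIX2, SALL1, WT1 and EYA1 act in the nephron progenitors that cap the bud, PAX2 and PAX8 act in the duct and in forming nephrons, LHX1 in the duct and the renal vesicle, and GATA3 in the duct and the bud. EYA1 binds SIX2 as a co-activator, SALL1 recruits a histone deacetylase complex, and PAX2 activates the receptor RET that answers GDNF from the mesenchyme.

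Expression was measured as FPKM, in which the fragments of a gene are divided by its exon length and the depth of the library, so that levels of different genes can be set side by side. The libraries held 15517856 to 19489918 fragments on genes. Of the genes targeted, CARD19 (the present symbol of C9orf89) had 4.34, 4.27 and 4.34 FPKM in its clone against 5.70, 7.71 and 6.27 in Non-target (adjusted p = 0.000977), and it was also low in the RHBDD2 clone, at 4.79 ± 0.339 (SD, n = 3). RHBDD2 had 11.2, 13.5 and 12.4 FPKM in its clone against 27.4, 38.1 and 34.9 in Non-target (adjusted p = 7.56e-06), and it was also low in the MAGI2 clone, at 13.8 ± 2.15 (SD, n = 3). MAGI2 was under the filter on low values described below, at 0.068 ± 0.0195 FPKM in its clone and 0.115 ± 0.0108 in Non-target. MLPH was at 0 in all 15 libraries, where 3 fragments would have been at most 0.0258 FPKM. RNA of the latter pair therefore gives no check of those labels. Libraries numbered 1 stood apart from the libraries numbered 2 and 3 of the same group: the chi-square per gene between wells was 14.6 to 24.8 in pairs with a library 1 and 2.40 to 6.54 in the other pairs. Differences of the 8 genes that lost their call without the 5 libraries numbered 1 are named below.

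The upstream windows shown are those of SIX2 and GATA3, the members that passed the test in all 4 clones, and that of PAX8, the member with almost no RNA. Each is the 250 bases before a RefSeq start on GRCh38.p14, read 5′ to 3′ on the strand of the gene, with AGATAA or its reverse complement TTATCT, a motif bound by GATA factors, in capitals. SIX2 is at chr2:45009453-45009702 (minus strand), PAX8 at chr2:113278922-113279171 (minus strand), and the GATA3 window lies before the first of the 6 starts listed for it, at chr10:8045083-8045332 (plus strand).
SIX2: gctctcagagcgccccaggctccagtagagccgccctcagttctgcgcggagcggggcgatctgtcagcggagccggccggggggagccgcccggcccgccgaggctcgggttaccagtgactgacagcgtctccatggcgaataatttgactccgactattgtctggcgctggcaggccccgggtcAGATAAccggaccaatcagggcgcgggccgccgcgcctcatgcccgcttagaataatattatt
GATA3: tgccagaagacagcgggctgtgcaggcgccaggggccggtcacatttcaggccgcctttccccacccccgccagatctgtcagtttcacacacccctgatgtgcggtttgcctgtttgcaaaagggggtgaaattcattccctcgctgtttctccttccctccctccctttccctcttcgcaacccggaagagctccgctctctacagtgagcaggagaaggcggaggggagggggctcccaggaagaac
PAX8: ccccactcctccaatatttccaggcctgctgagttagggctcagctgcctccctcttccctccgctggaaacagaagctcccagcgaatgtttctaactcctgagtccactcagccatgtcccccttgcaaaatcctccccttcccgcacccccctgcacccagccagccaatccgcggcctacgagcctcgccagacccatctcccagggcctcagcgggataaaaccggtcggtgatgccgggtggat
The SIX2 window held 1 match, which begins 63 bases before the start, and the other windows shown held none. Over the 14 windows listed for PAX2, PAX8, SIX2, WT1 and GATA3, 1 held this motif, beside 9.17% of all 35116 windows of the same length. The SIX2 window had 26 CpG pairs. The PAX8 window and the GATA3 window shown had 11 each, the same as the median of all windows. TCAGGTTTC, the MEF3 motif that SIX2 and its relatives bind, was in 0 of the 14 windows and 0.288% of all, on either strand. GCGGGGGCG, a motif of EGR1 that WT1 also binds, was in 1 of the 14, another GATA3 window, and 4.72% of all. A match is a description of the letters, not a binding site. Windows of SALL1, EYA1 and LHX1 are not shown.

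SIX2 was the most abundant of the 8 genes, followed by SALL1, GATA3 and WT1, and PAX8 was all but absent. Mean levels over the 15 libraries were 29 FPKM for SIX2, 6.83 for SALL1, 4.57 for GATA3, 2.59 for WT1, 1.24 for LHX1, 1.13 for EYA1 and 0.825 for PAX2. The median of all tested genes was 4.29 FPKM, so that SIX2 lay at percentile 89.7 and PAX2 at 19.1. PAX8 (chromosome 2, 113215997 to 113278950, minus strand) had 7 fragments over all 15 libraries and was at 0 in 11 of them, with at most 0.0209 FPKM. Its highest library had 3 fragments, and PAX8-AS1, which overlaps it on the opposite strand, had a mean of 0.00432 FPKM. PAX8 was thus at or under the floor of 3 fragments in every group, while its paralog PAX2 was detected in each library with 51 to 151 fragments.

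**Figure D1:**
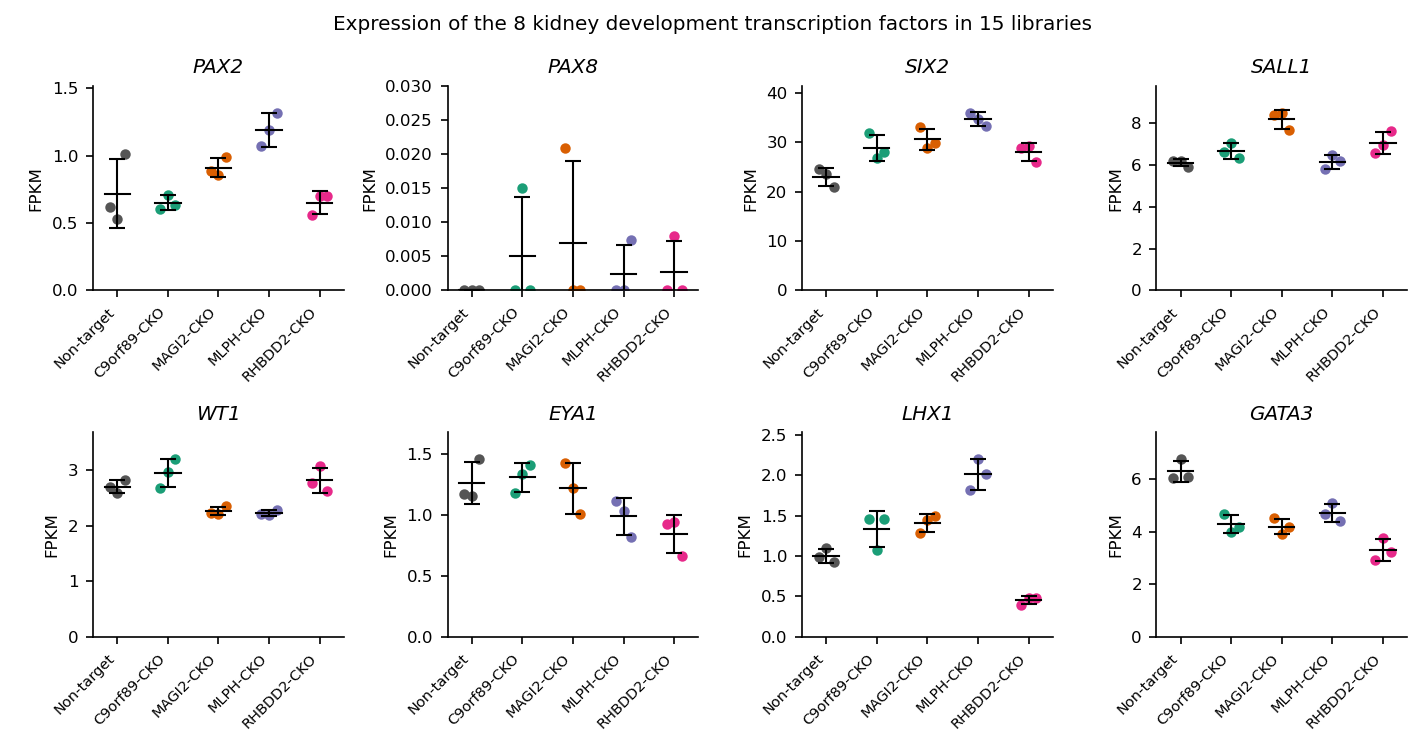
FPKM of the 8 members (vertical axes from 0, a scale for each gene) in the 5 groups. Points are the 3 libraries of a group, and bars are the mean and SD. SIX2 is lowest and GATA3 highest in Non-target, LHX1 lies below 0.5 FPKM in the RHBDD2 clone, and PAX8 does not pass 0.0209 FPKM.

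Differences were tested with limma on log2(FPKM + 0.1), for the 16175 genes that reached 0.5 FPKM in 3 or more libraries, with p-values adjusted over all of these genes in each comparison and a threshold of 0.05. PAX8 did not pass the filter, so 7 of the 8 members were tested. The added constant makes the changes of low genes look smaller than they were. In bulk RNA, fewer cells with a transcript and less of it per cell cannot be told apart.

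SIX2, which keeps nephron progenitors undifferentiated, was higher than in Non-target in all 4 clones. SIX2 (chromosome 2, 45005161 to 45009430, minus strand) had 24.5, 23.6 and 20.9 FPKM in the 3 Non-target libraries. It had 31.8, 26.8 and 28.0 FPKM in the C9orf89 clone and 33.0, 28.9 and 29.9 in the MAGI2 clone. It had 36.0, 34.8 and 33.2 FPKM in the MLPH clone and 28.8, 29.2 and 25.9 in the RHBDD2 clone. Each of the 12 CKO libraries lay above each Non-target library. The rise was 0.33 on the log2 scale in the C9orf89 clone (adjusted p = 0.0116), 0.41 in the MAGI2 clone (0.00193), 0.59 in the MLPH clone (0.000184) and 0.28 in the RHBDD2 clone (0.0198), each with a standard error of 0.0835. Among all tested genes, 3.39% were higher in all 4 clones. Among the clones, SIX2 was higher in the MLPH clone than in the RHBDD2 clone (0.31, adjusted p = 0.0104). The difference between the C9orf89 and MLPH clones lay at the threshold (adjusted p = 0.0505) and passed in 10 of 25 alternative settings. Without Non-target library 3, the lowest of the control libraries, the rise in the C9orf89 clone had an adjusted p of 0.058 and that in the RHBDD2 clone one of 0.0927. Leaving out library 1 or 2 of the RHBDD2 clone also ended the latter call (0.058 and 0.0704).

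GATA3, a zinc finger factor of the nephric duct, was lower than in Non-target in all 4 clones. GATA3 (chromosome 10, 8045378 to 8075203, plus strand) had 6.06, 6.77 and 6.09 FPKM in Non-target. It had 4.67, 4.01 and 4.19 FPKM in the C9orf89 clone and 4.51, 3.92 and 4.18 in the MAGI2 clone. It had 4.67, 5.10 and 4.40 FPKM in the MLPH clone and 2.93, 3.76 and 3.24 in the RHBDD2 clone. All CKO libraries lay below all Non-target libraries, and those of the RHBDD2 clone lay below all others. GATA3 fell by 0.55 on the log2 scale in the C9orf89 clone (adjusted p = 0.0014), by 0.57 in the MAGI2 clone (0.000587), by 0.41 in the MLPH clone (0.00712) and by 0.91 in the RHBDD2 clone (1.98e-05), with a standard error of 0.0988. Genes lower in all 4 clones made up 3.26% of those tested. The level in the RHBDD2 clone was also under that in the C9orf89, MAGI2 and MLPH clones, by 0.37, 0.34 and 0.50 (adjusted p = 0.0135, 0.0144 and 0.00142). Without the 5 libraries numbered 1, the first and second of these differences were 0.23 (adjusted p = 0.131) and 0.21 (0.141). The other 3 clones did not differ in GATA3 past the threshold.

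LHX1, a LIM homeodomain factor of the duct and the renal vesicle, varied most among the 7 tested members, and in both directions. LHX1 (chromosome 17, 36936785 to 36944612, plus strand) had 0.983, 1.10 and 0.922 FPKM in Non-target. It had 1.46, 1.08 and 1.46 FPKM in the C9orf89 clone and 1.29, 1.45 and 1.5 in the MAGI2 clone. It had 1.82, 2.20 and 2.01 FPKM in the MLPH clone and 0.395, 0.484 and 0.478 in the RHBDD2 clone. The RHBDD2 clone lay under and the MLPH clone over every library of the other groups, while the C9orf89 clone overlapped Non-target. LHX1 rose by 0.94 on the log2 scale in the MLPH clone (adjusted p = 0.000258) and by 0.46 in the MAGI2 clone (0.02), and fell by 1.00 in the RHBDD2 clone (0.000141), with a standard error of 0.138. The difference of 0.37 in the C9orf89 clone did not pass (adjusted p = 0.0643, 95% interval 0.08 to 0.67), but passed without the variance trend (0.0432) and without library 2 of that clone (0.51, adjusted p = 0.0196). Between the MLPH and RHBDD2 clones it was 3.82-fold with the constant added (log2 1.93, adjusted p = 4.39e-07). The rise in the MAGI2 clone had an adjusted p of up to 0.0736 when Non-target library 3 or library 2 or 3 of the MAGI2 clone was left out. LHX1 was read from 35 to 202 fragments per library. LHX1-DT, a gene on the opposite strand that begins beside LHX1, had 0.868, 1.19, 1.14, 1.64 and 0.356 FPKM in Non-target and the C9orf89, MAGI2, MLPH and RHBDD2 clones, from 9 to 113 fragments per library, and fell by 1.12 in the RHBDD2 clone (adjusted p = 0.0279).

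SALL1, a zinc finger factor of the nephron progenitors, was higher in the MAGI2 and RHBDD2 clones. SALL1 (chromosome 16, 51135975 to 51151367, minus strand) had 6.21, 6.20 and 5.92 FPKM in Non-target. It had 8.38, 8.51 and 7.66 FPKM in the MAGI2 clone and 6.59, 6.94 and 7.62 in the RHBDD2 clone. It had 6.61, 7.08 and 6.33 FPKM in the C9orf89 clone and 5.79, 6.46 and 6.17 in the MLPH clone. The MAGI2 clone lay above all libraries of the other groups, and the MLPH clone overlapped Non-target. SALL1 rose by 0.41 in the MAGI2 clone (adjusted p = 0.000593) and by 0.20 in the RHBDD2 clone (0.045), with a standard error of 0.0715. In the MLPH clone the difference was 0.01, with a 95% interval of −0.15 to 0.16, and in the C9orf89 clone 0.12 (−0.03 to 0.28). The rise in the RHBDD2 clone kept its call in 12 of 25 alternative settings, and was lost without any of the Non-target libraries (adjusted p = 0.0673 to 0.134), library 2 or 3 of the clone (0.0788 and 0.184) or 4 libraries of the other clones (0.0522 to 0.0563). AC009166.1, which overlaps SALL1 on the opposite strand, had a value of −1.09 in the RHBDD2 clone (adjusted p = 0.0245), but with only 1 to 7 fragments per library it lay near the floor of 3.

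WT1, a zinc finger factor of the progenitors and later of podocytes, had the narrowest range. WT1 (chromosome 11, 32387775 to 32435630, minus strand) had 2.70, 2.59 and 2.83 FPKM in Non-target. It had 2.23, 2.21 and 2.35 FPKM in the MAGI2 clone and 2.22, 2.19 and 2.29 in the MLPH clone. It had 2.68, 2.97 and 3.20 FPKM in the C9orf89 clone and 2.77, 3.07 and 2.62 in the RHBDD2 clone. The former clones lay below Non-target without overlap and the latter overlapped it. WT1 fell by 0.25 in the MAGI2 clone (adjusted p = 0.0326) and by 0.26 in the MLPH clone (0.0288), with a standard error of 0.0822. Neither call was kept without the libraries numbered 1 (adjusted p = 0.105 and 0.0854), with values of −0.24 and −0.26. Leaving out library 1 or 3 of Non-target or library 1 or 2 of the clone ended each call too, with an adjusted p of up to 0.109 and 0.0997, and leaving out library 3 of the MLPH clone ended the latter (0.0516). The 95% interval of the difference was −0.06 to 0.30 in the C9orf89 clone and −0.12 to 0.23 in the RHBDD2 clone. Among the clones, the C9orf89 and RHBDD2 clones were each higher than the MAGI2 and MLPH clones, and all 4 differences passed (adjusted p = 0.00665 to 0.00996). WT1-AS, on the opposite strand, had a mean of 0.172 FPKM.

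EYA1, a co-activator that SIX2 recruits, was lower in the RHBDD2 clone. EYA1, on chromosome 8, had 1.17, 1.16 and 1.46 FPKM in Non-target and 0.930, 0.940 and 0.666 in the RHBDD2 clone. It had 1.18, 1.34 and 1.41 FPKM in the C9orf89 clone, 1.43, 1.22 and 1.01 in the MAGI2 clone and 1.12, 1.03 and 0.817 in the MLPH clone. Every library of the RHBDD2 clone lay below every Non-target library, and the ranges of neighbouring groups in the order overlapped. EYA1 fell by 0.54 in the RHBDD2 clone (standard error 0.171, adjusted p = 0.0281). Without library 3 of the RHBDD2 clone the value was −0.39 (adjusted p = 0.121), and without Non-target library 3 it was −0.43 (0.112). The 95% intervals in the C9orf89 clone (−0.32 to 0.42), the MAGI2 clone (−0.42 to 0.32) and the MLPH clone (−0.70 to 0.04) did not set a narrow bound.

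PAX2, a paired-domain factor of the duct and the early nephron, was higher in the MLPH clone. PAX2 (chromosome 10, 100735603 to 100829941, plus strand) had 0.619, 0.528 and 1.01 FPKM in Non-target and 1.07, 1.19 and 1.32 in the MLPH clone. It had 0.602, 0.711 and 0.634 FPKM in the C9orf89 clone, 0.883, 0.859 and 0.993 in the MAGI2 clone and 0.556, 0.700 and 0.699 in the RHBDD2 clone. Non-target library 3 stood above the other control libraries and within the range of the clones. PAX2 rose by 0.70 in the MLPH clone (standard error 0.193, adjusted p = 0.0156), a call that was not kept without the libraries numbered 1 (adjusted p = 0.0754), nor without Non-target library 1 or 2 or library 3 of the MLPH clone (0.0548, 0.068 and 0.0604). In the MAGI2 clone the difference of 0.35 did not pass (adjusted p = 0.19), but it was 0.59 (0.0172) without Non-target library 3. In the C9orf89 and RHBDD2 clones the difference was −0.09 each, with 95% intervals of −0.51 to 0.33.

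Over the 7 tested members, 2 passed in the C9orf89 clone, 5 in the MAGI2 clone, 5 in the MLPH clone and 5 in the RHBDD2 clone. The background of all tested genes was 26.0%, 36.1%, 30.1% and 34.1% in the same order, so that the share of 28.6% in the C9orf89 clone was near it and the share of 71.4% in the other clones was above it. The counts were 1, 3, 3 and 2 higher, beside 12.9%, 17%, 14.5% and 17.4% of all genes, and 1, 2, 2 and 3 lower, beside 13.1%, 19.1%, 15.5% and 16.7%. The median log2 fold change of the members was 0.12, 0.35, 0.01 and −0.09, beside a median of all tested genes within 0.01 of 0. Of the 28 tests against Non-target 17 passed. With the constant added 0 of these reached 2-fold, but by mean FPKM LHX1 was at 2.01 in the MLPH clone and 0.452 in the RHBDD2 clone against 1.0 in Non-target. Calls kept in every alternative setting run were 9 of the 17: GATA3 in all 4 clones, SIX2 and SALL1 in the MAGI2 clone, SIX2 and LHX1 in the MLPH clone, and LHX1 in the RHBDD2 clone. Without the libraries numbered 1 the counts were 2, 4, 3 and 5, and without any 1 library they fell as low as 1, 3, 3 and 2.

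**Figure D2:**
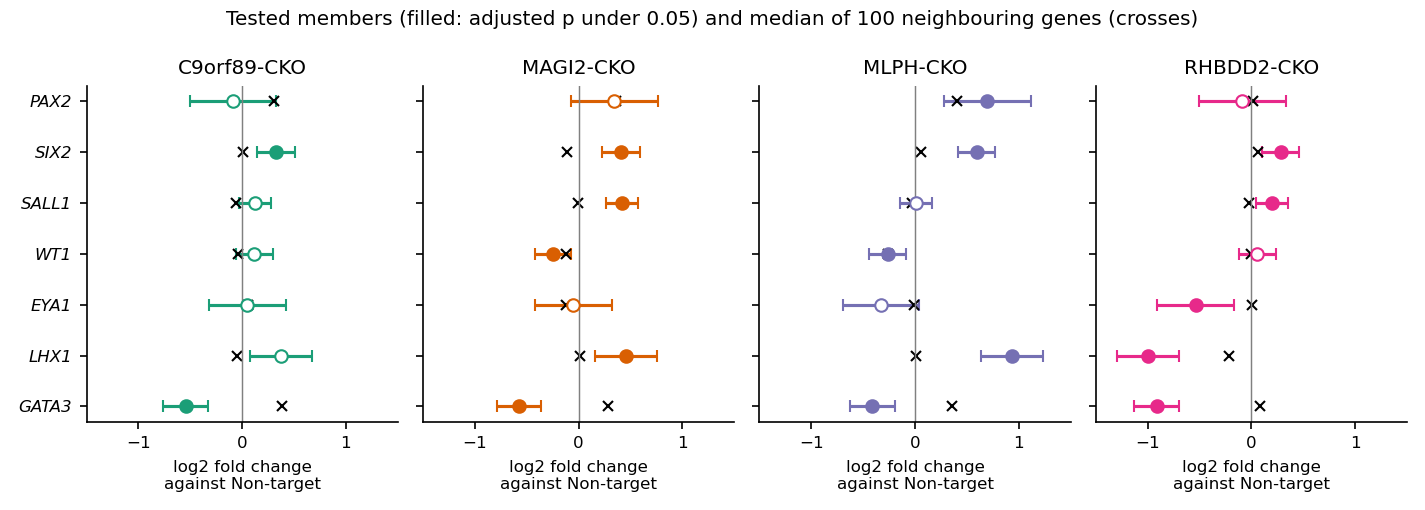
log2 fold change against Non-target (horizontal axis, log2 of FPKM + 0.1) of the 7 tested members in each CKO clone, with 95% intervals as bars and filled points for an adjusted p under 0.05. Crosses are the median of the 100 tested genes nearest to the member: GATA3 lies left of 0 in all 4 panels while its neighbours lie right of 0.

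The clones also differed among themselves. Of the 42 tests between CKO clones, 21 passed, and the 3 that reached 2-fold with the constant added were LHX1 in the RHBDD2 clone against each other clone. Without the libraries numbered 1 the count was 14, with 8 calls lost and 1 gained. Those lost were the differences of GATA3 given above, PAX2 in the MLPH clone against the C9orf89 clone (adjusted p = 0.0689) and the RHBDD2 clone (0.0537), LHX1 between the MAGI2 and MLPH clones (0.0756), SALL1 in the RHBDD2 clone against the MAGI2 clone (0.182) and the MLPH clone (0.0914), and EYA1 between the MAGI2 and RHBDD2 clones (0.126). The one gained was SIX2 between the C9orf89 and MLPH clones (0.0239). The background was 22.5% for the C9orf89 clone against the MAGI2 clone, 14.2% against the MLPH clone and 29.3% against the RHBDD2 clone. It was 21.2% for the MAGI2 clone against the MLPH clone, 41.6% for the MAGI2 clone against the RHBDD2 clone and 37.0% for the MLPH clone against the RHBDD2 clone. Against the RHBDD2 clone the members passed in 3 of 7 tests for the C9orf89 clone, 5 for the MAGI2 clone and 6 for the MLPH clone. Against each other, the remaining clones had 2 members past the threshold for the C9orf89 and MAGI2 clones, 3 for the C9orf89 and MLPH clones, and 2 for the MAGI2 and MLPH clones.

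On the scale of log2(FPKM + 0.1), the spread over the 5 groups was under the median of all tested genes for 4 of the 7 members. Turned back into a ratio with the constant included, the highest group mean over the lowest was 1.30 for WT1, 1.33 for SALL1, 1.5 for EYA1, 1.51 for SIX2, 1.72 for PAX2, 1.88 for GATA3 and 3.82 for LHX1, beside a median of 1.55 over all tested genes. WT1 and SALL1 thus lay at percentiles 23.2 and 27.3 of the tested genes, EYA1 and SIX2 at 46.1 and 46.8, PAX2 at 61.8, GATA3 at 68.9 and LHX1 at 91.5. An F test across the 5 groups passed for 7 of 7 members (adjusted p from 1.84e-06 for LHX1 to 0.0359 for EYA1), against 61.0% of all tested genes, and for 5 of 7 without the libraries numbered 1.

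**Figure D3:**
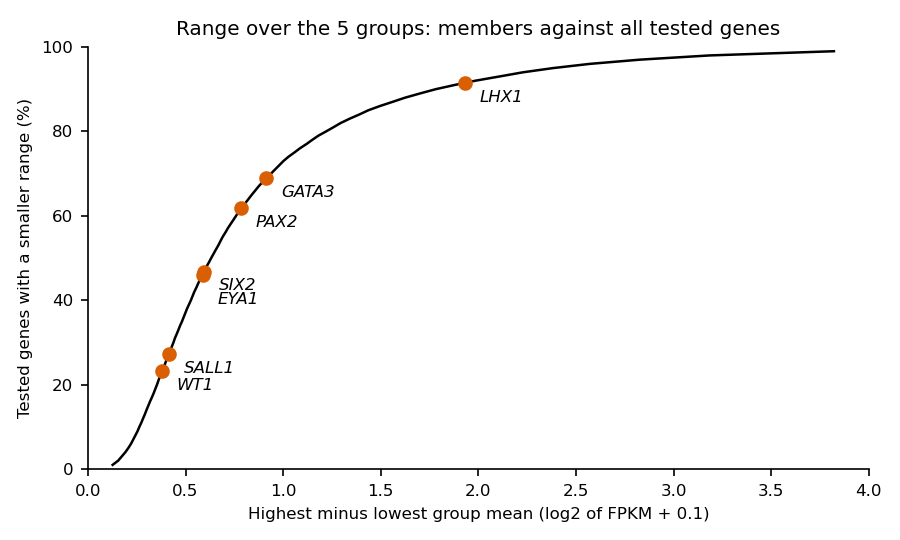
Share of the 16175 tested genes with a smaller range (vertical axis, percent) against the range, the highest minus the lowest of the 5 group means on the log2 scale. The line is all tested genes and points are the 7 tested members; WT1 and SALL1 lie below percentile 30 and LHX1 above 90, with the other members between.

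The segments around the members did not move with all of them. The median log2 fold change of the 100 tested genes nearest to GATA3 was 0.39 in the C9orf89 clone, 0.29 in the MAGI2 clone, 0.35 in the MLPH clone and 0.08 in the RHBDD2 clone, each opposite in sign to GATA3 itself. Around PAX2, on the other arm of chromosome 10, it was 0.30, 0.36, 0.40 and 0.01, where PAX2 had −0.09, 0.35, 0.70 and −0.09. WT1 and its neighbours had −0.25 and −0.12 in the MAGI2 clone and −0.26 and −0.26 in the MLPH clone. Neighbours of SIX2 had medians from −0.11 to 0.06, those of SALL1 from −0.06 to −0.01 and those of EYA1 from −0.12 to 0.05. Around LHX1 the median was −0.21 in the RHBDD2 clone and between −0.05 and 0.01 in the other clones. The part of the segments in the members' values was not tested.

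Each tested member had genes with a similar course over the 15 libraries, chosen as the 3 with the highest Pearson r among 12533 genes of at least 1 FPKM. For LHX1 they included PLK2 and MSX1, with r = 0.96 each, and 84 genes had an r over 0.9. MSX1, a homeodomain factor, had 23.9 FPKM in Non-target, 35.0 in the MLPH clone and 13.6 in the RHBDD2 clone. GATA3 was closest to SPOUT1 (r = 0.932), ADM2 and FOXF1, a forkhead factor with 7.06 FPKM in Non-target and 1.63 in the RHBDD2 clone. SIX2 was closest to PCGF6, PCLAF and CSNK1G1, SALL1 to SNHG1, APBB3 and OGT, and WT1 to ZNF202, GPR107 and GGA2, with r from 0.904 to 0.945. PAX2 (TCF12, AC068338.2, PEX6) and EYA1 (ZCCHC8, LINC01033, DYNLT3) had no gene over 0.9. The 15 libraries fall into 5 clones and are not independent points. Among the members themselves, r was highest for PAX2 with LHX1 (0.602) and lowest for PAX2 with WT1 (−0.643).

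Among the paralogs, GATA5 and SALL3 rose and LHX8 fell in all 4 clones. The list of 36 genes also holds DACH1 and DACH2, which are partners of EYA proteins and not paralogs. Of these genes 25 were tested, DACH1 included, and in the C9orf89, MAGI2, MLPH and RHBDD2 clones 4, 3, 3 and 4 rose and 6, 8, 3 and 8 fell. The shares called were 40.0%, 44.0%, 24.0% and 48.0%, beside 26.0%, 36.1%, 30.1% and 34.1% of all tested genes. In the GATA family, GATA5 was at 0.391 ± 0.0692 FPKM (SD, n = 3) in Non-target and at 4.76 ± 0.566, 2.36 ± 0.703, 2.12 ± 0.25 and 1.48 ± 0.249 in the same order of clones. It rose in all 4, by 1.69 to 3.31 on the log2 scale, while GATA3 fell in all 4. GATA6, a factor of heart and endoderm, was at 14.9 ± 1.76 FPKM in Non-target and fell in the C9orf89, MAGI2 and RHBDD2 clones, by 1.14, 1.5 and 1.71. GATA4 passed in no clone (8.68 to 10.7 FPKM in the clones), and GATA2 fell in the RHBDD2 clone alone (by 0.44).

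SALL3 was at 0.448 ± 0.118 FPKM in Non-target and rose in all 4 clones, by 1.90, 1.97, 1.90 and 0.86, while SALL2 (15.6 FPKM on average) passed in none. SIX5 fell in the RHBDD2 clone (by 0.70), SIX3 rose in the MLPH clone (0.81) and SIX4 passed in none. EYA3 was higher in the C9orf89, MAGI2 and RHBDD2 clones by 0.48, 0.41 and 0.47, EYA2 lower in the MAGI2 clone (1.28 ± 0.11 FPKM against 3.96 ± 0.398) and the MLPH clone, and EYA4 lower in the MAGI2 clone. DACH1 fell in all 4 clones, by 0.18 to 0.51. Of the LIM factors, LHX8 fell in all 4 (2.05 ± 0.125 FPKM in Non-target, 0.744 to 1.29 in the clones), LHX2 fell in the MAGI2 and RHBDD2 clones, LHX4 fell in the MAGI2 clone, LHX6 rose in the C9orf89 clone, and ISL1 fell in the C9orf89, MAGI2 and RHBDD2 clones. LHX9, ISL2 and LMX1B passed in no clone. Of the PAX genes, PAX3 fell in the C9orf89 clone (by 0.33), PAX9 rose in the RHBDD2 clone (0.38) and PAX6 passed in none.

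Other transcription factors of kidney development changed in both directions in each clone. Of 43 listed, 30 were tested, and 15, 16, 13 and 17 passed in the C9orf89, MAGI2, MLPH and RHBDD2 clones. These were 50%, 53.3%, 43.3% and 56.7%, beside 26.0%, 36.1%, 30.1% and 34.1% of all tested genes. The counts were 8, 6, 9 and 9 higher and 7, 10, 4 and 8 lower, with medians of 0.08, −0.01, −0.00 and 0.08. CITED1, a co-activator that marks the cap mesenchyme together with SIX2, was at 13.8 ± 1.37 FPKM in Non-target and at 2.61 ± 0.957, 2.86 ± 0.171, 4.02 ± 0.594 and 2.39 ± 0.463 in the clones. Its fall of 2.43, 2.23, 1.76 and 2.50 on the log2 scale was the largest of the list in each clone, and was opposite in direction to the rise of SIX2. FOXC2 and HOXC11 rose in all 4 clones, by 0.66 to 1.56 and 0.52 to 0.95. FOXC1, a forkhead factor of the early mesenchyme and the most abundant of the list at 93.4 FPKM, fell in the C9orf89, MAGI2 and MLPH clones and rose in the RHBDD2 clone (0.30). TFAP2A had the same pattern, with 14.7 ± 0.149 FPKM in the RHBDD2 clone and 5.74 ± 0.439 in Non-target, and SOX4 fell in the C9orf89 and MLPH clones and rose in the RHBDD2 clone (81.1 ± 5.42 against 38.3 ± 4.61). HOXA10 and HOXA11, HOX genes that pattern the metanephros, rose in the C9orf89 and MLPH clones and fell in the MAGI2 clone, and NR2F2 rose in the MAGI2 and MLPH clones. SOX11 was at 0 in Non-target and the MAGI2 and MLPH clones, and at 0.696 ± 0.119 FPKM in the C9orf89 clone. SIX4, LMX1B, TBX18, EMX2 and HOXD11 passed in no clone. OSR1 (0.141 FPKM), which marks intermediate mesoderm, SALL4, MEOX1, HNF4A and TCF21 were among the genes under the filter, and MEOX2, IRX1, IRX2 and FOXI1 were at 0 throughout.

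**Figure D4:**
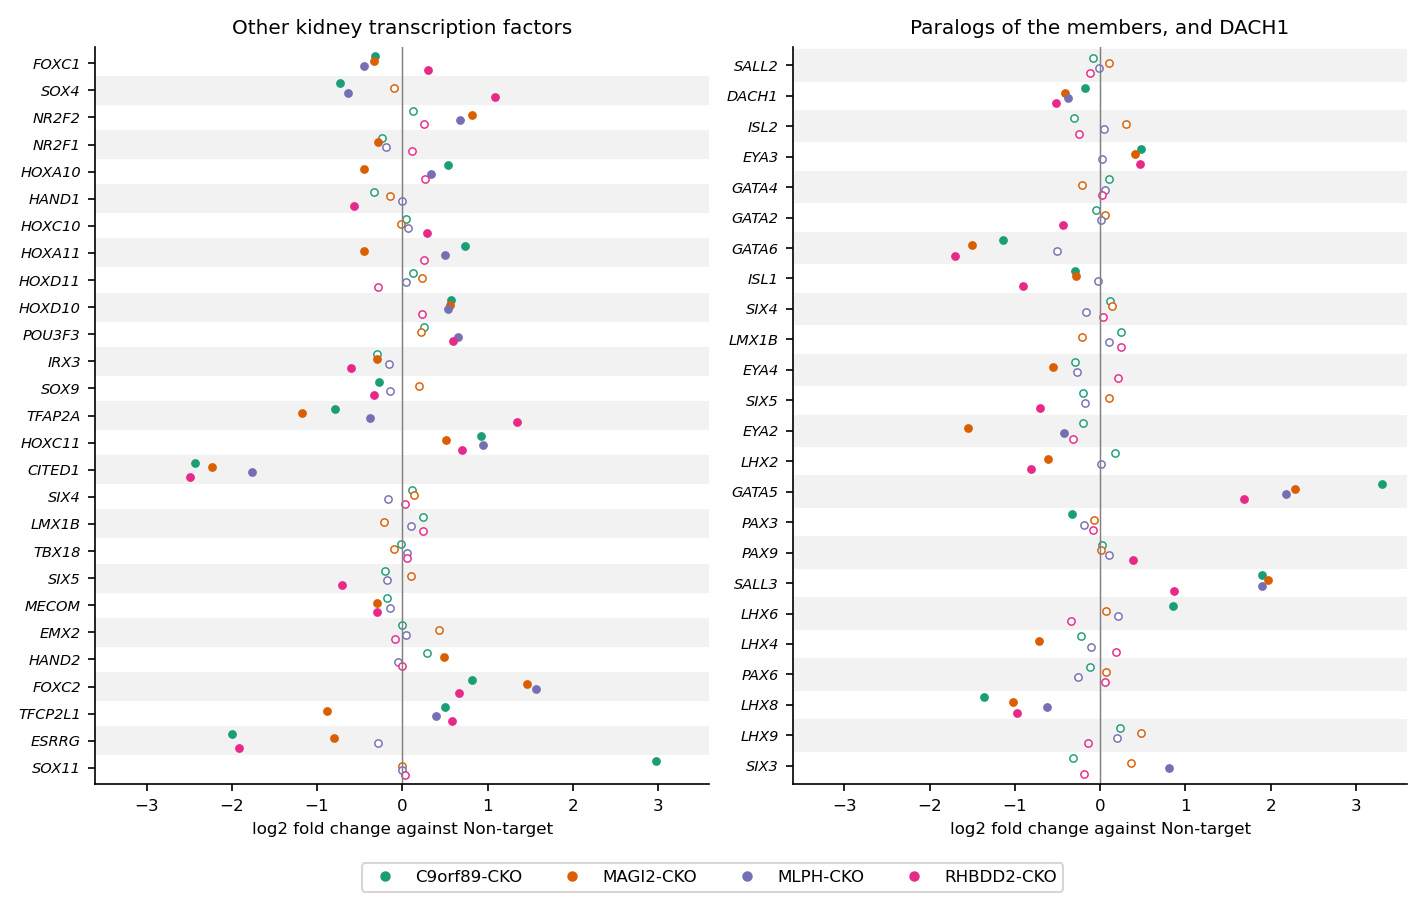
log2 fold change against Non-target (horizontal axes) of 27 tested kidney transcription factors and 24 tested genes of the paralog list (DACH1 included), sorted by mean FPKM, with a colour for each clone and filled points for an adjusted p under 0.05. CITED1 lies left of −1.7 and GATA5 right of 1.6 in all 4 clones; the point of SOX11 in the C9orf89 clone is against a control at 0 and is set by the added constant.

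Of the signals between bud and mesenchyme, 14 of 23 tested genes fell in the MAGI2 clone, beside 19.1% of all tested genes. Of 34 listed genes 23 were tested, and 4 rose and 4 fell in the C9orf89 clone, 1 rose and 14 fell in the MAGI2 clone, 4 rose and 8 fell in the MLPH clone, and 6 rose and 6 fell in the RHBDD2 clone. The shares called were 34.8%, 65.2%, 52.2% and 52.2%, beside the same background as for the paralogs. The medians were −0.02, −0.41, −0.20 and −0.07. RET, the receptor that PAX2 and GATA3 activate in the duct, was at 0.655 ± 0.0578 FPKM in Non-target, rose in the C9orf89 clone (0.76) and the MLPH clone (0.54) and fell in the RHBDD2 clone (by 0.67), and its co-receptor GFRA1 fell in the MAGI2, MLPH and RHBDD2 clones, by 0.57, 0.95 and 1.16. Their ligand GDNF was under the filter, at 0.262 FPKM. SLIT2, a ligand that limits where the bud forms, was at 32.7 ± 1.24 FPKM in Non-target and fell in the MAGI2 and MLPH clones (16.2 ± 0.432 and 17.8 ± 1.44) and rose in the RHBDD2 clone (37.4 ± 0.729). Its receptor ROBO2 fell in the C9orf89, MAGI2 and MLPH clones. BMP7, which sustains nephron progenitors, fell in the MAGI2 and RHBDD2 clones (by 0.33 and 0.36), and NOTCH1 fell in all 4 clones, by 0.50 to 0.84. ITGA8, the integrin of the mesenchyme, rose in the C9orf89, MLPH and RHBDD2 clones, and its ligand NPNT rose in the C9orf89 clone (0.80) and the RHBDD2 clone (1.37) and fell in the MAGI2 clone (by 1.38). WNT4 and WNT9B, which start nephron formation, were at 0.0445 and 0.0216 FPKM.

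Cofactors of the members passed at a share near or below that of all genes. Of 20 cofactors 19 were tested, and 2, 7, 6 and 6 passed in the same order of clones, which is 10.5%, 36.8%, 31.6% and 31.6% beside 26.0%, 36.1%, 30.1% and 34.1% of all tested genes. LDB1, the partner of LIM factors such as LHX1, rose in the MAGI2 clone (0.87) and the MLPH clone (0.44). ZFPM2, a partner of GATA factors, fell in the MAGI2, MLPH and RHBDD2 clones, by 0.94, 0.37 and 0.98. TLE2, a co-repressor, rose in the MAGI2 and MLPH clones (0.63 and 0.92) and fell in the RHBDD2 clone (by 0.59). HDAC1, RBBP4 and CHD4, of the deacetylase complex that SALL1 binds, passed in no clone. Of the same complex, MTA2 fell in the MLPH clone (by 0.37) and RBBP7 in the MAGI2 clone (by 0.19, with 56.9 ± 2.09 FPKM against 65.0 ± 1.2 in Non-target).

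Markers of differentiated kidney cells were mostly absent. Of 7 podocyte markers 1 passed the filter, PODXL at 6.24 FPKM, and PLA2R1 was at 0 in all libraries, although WT1 was expressed. PODXL fell in the C9orf89, MAGI2 and MLPH clones, by 0.23, 1.12 and 0.37, and rose in the RHBDD2 clone (0.49). Of 9 proximal tubule markers LRP2 (2.21 FPKM) and GGT1 (1.22) passed the filter. Of 6 loop of Henle and distal tubule markers 1 passed the filter, PVALB at 0.446 FPKM on average, and UMOD was at 0. PVALB had 0.817 ± 0.052 FPKM in Non-target and 0.281 to 0.399 in the clones, but passed the test in no clone. LRP2 fell in the MAGI2 clone (by 1.25) and rose in the RHBDD2 clone (0.31), and GGT1 rose in the MAGI2, MLPH and RHBDD2 clones (0.99, 0.84 and 0.98). Of 12 bud and collecting duct markers 6 passed the filter and AQP2, SCNN1G and KRT19 were at 0. Their summed level was 21.7 FPKM in Non-target and 40.4 in the MLPH clone. It was 22.7 in the C9orf89 clone, 23.4 in the MAGI2 clone and 21.1 in the RHBDD2 clone. KRT18 was the most abundant (14.3 FPKM on average), and KRT8 was at 15.3 ± 0.861 in the MLPH clone against 5.09 ± 0.384 in Non-target. KRT8 fell in the C9orf89 and MAGI2 clones (by 0.93 and 0.45), while AQP3 rose in all 4 clones, by 0.83 to 1.37, and EPCAM in the C9orf89, MLPH and RHBDD2 clones (1.18, 2.02 and 0.90). FOXD1, a stromal progenitor factor, was the most abundant of 9 stromal markers, of which 3 passed the filter, at 24.5 FPKM. It passed the test in no clone. COL1A1 rose in the C9orf89, MAGI2 and MLPH clones (0.74, 0.93 and 0.83), and MEIS1 rose in the C9orf89 clone. Of 11 neuronal markers 5 passed the filter, led by NEFL (20.7 FPKM). All 5 fell in the RHBDD2 clone, where the summed level was 10.3 FPKM against 68.3 in Non-target. In the other clones these markers did not move together. NEFL rose in the C9orf89, MAGI2 and MLPH clones (0.36, 0.40 and 0.89), INA fell in the C9orf89 and MAGI2 clones (by 0.26 and 0.64), GAP43 fell in the MLPH clone (by 2.78), and NEFM fell in the MAGI2 clone, to 0.0274 ± 0.0378 FPKM from 27.2 ± 9.71 in Non-target. The sum was 63.4 in the C9orf89 clone, 44.2 in the MAGI2 clone and 81.0 in the MLPH clone. The part of these marker groups in the members' values was not tested. Endothelial (5) and leukocyte (8) markers had 0 genes past the filter, with sums of at most 0.164 and 0.629 FPKM in any library, and 1 of 11 adrenal markers passed.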

How the data were processed

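RNA of 15 HEK293T libraries, 5 clones with 3 wells each, was analysed, with groups and replicate numbers as the labels give them. The authors deposited an FPKM value for each of 58735 genes and library, a unit worked out from the values: times the summed exon length of its gene in GENCODE v29 on GRCh38, each gave whole fragments, within 0.05, once divided by a step that is fixed for a library. The submitters' processing notes name HISAT2 2.0.5, featureCounts 1.5.0-p3 and DESeq2. The build and the strand setting are not given in the sources used here, so that reads of a gene and its antisense partner cannot be told apart.

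The 16175 genes that reached 0.5 FPKM in 3 or more libraries were fitted on log2(FPKM + 0.1) in limma 3.58.1 under R 4.3.3, with 5 groups in 1 fit, a variance trend (prior degrees of freedom 2.62) and Benjamini-Hochberg adjustment within each of 10 contrasts. The 95% intervals come from this fit. The fit was tested on simulated data, of which no result is given or used here. Figures and other values were made in Python 3.11.15 with matplotlib 3.10.9, scipy 1.17.1, pandas 2.3.3 and numpy 2.4.6. Floors of 3 fragments cover counting error only.

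The members and the 13 lists (other kidney factors, paralogs, signals, cofactors and 9 marker groups) were chosen with earlier results of these data known. SIX4, SIX5, LMX1B, SALL4, RET and CALB1 are among the genes that stand in more than 1 list. The text names the members, their tested paralogs, the 3 most abundant genes of each list and its largest rise and fall in each clone, the 3 genes most like each member and genes that overlap one. Some picks are left out, a few listed genes are counted but not reported by name, and some genes named for their role or for not passing the test were added after their values were seen. Alternatives were pseudocounts of 1 and 0.01, no filter, a mean of at least 1 FPKM, quantile normalization, no trend, only the 6 libraries contrasted, a replicate block, voom on the recovered fragments, the 5 libraries numbered 1 left out, and each library left out in turn. Counts over the lists under these alternatives were added after seeing the data.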

Additional observations from a re-analysis of the deposited data

Results flagged for a closer look

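CKO clones differed from each other in a tested member in 21 of 42 comparisons, each by limma's test of the difference itself with an adjusted p under 0.05. Of all tested genes, between 14.2% (C9orf89 against MLPH clone) and 41.6% (MAGI2 against RHBDD2 clone) passed in a comparison between clones. As log2 differences, LHX1 was higher than in the RHBDD2 clone by 1.37 in the C9orf89 clone, 1.45 in the MAGI2 clone and 1.93 in the MLPH clone, and its value against the MLPH clone was −0.56 in the C9orf89 clone and −0.48 in the MAGI2 clone. GATA3 was higher than in the RHBDD2 clone by 0.37 in the C9orf89 clone, 0.34 in the MAGI2 clone and 0.50 in the MLPH clone. SALL1 in the MAGI2 clone was higher by 0.41 than in the MLPH clone and by 0.21 than in the RHBDD2 clone, its value in the C9orf89 clone against the MAGI2 clone was −0.29, and that in the MLPH clone against the RHBDD2 clone was −0.20. WT1 in the C9orf89 clone was higher by 0.36 than in the MAGI2 clone and by 0.38 than in the MLPH clone, and its values against the RHBDD2 clone were −0.30 in the MAGI2 clone and −0.32 in the MLPH clone. PAX2 had a value of −0.79 in the C9orf89 clone against the MLPH clone, and in the MLPH clone it was higher by 0.78 than in the RHBDD2 clone. EYA1 was higher than in the RHBDD2 clone by 0.59 in the C9orf89 clone and 0.48 in the MAGI2 clone, and SIX2 was higher by 0.31 in the MLPH clone than in the RHBDD2 clone. Without the 5 libraries numbered 1, 8 of the 21 lost their call: GATA3 in the RHBDD2 clone against the C9orf89 and MAGI2 clones, PAX2 in the MLPH clone against the C9orf89 and RHBDD2 clones, LHX1 between the MAGI2 and MLPH clones, SALL1 in the RHBDD2 clone against the MAGI2 and MLPH clones, and EYA1 between the MAGI2 and RHBDD2 clones. Of these 21 differences, 8 were kept in every alternative setting run: LHX1 in the RHBDD2 clone against each other clone, WT1 in the MAGI2 clone against the C9orf89 and RHBDD2 clones and in the MLPH clone against the RHBDD2 clone, SALL1 in the MAGI2 clone against the MLPH clone, and GATA3 in the MLPH clone against the RHBDD2 clone.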

How the results depend on the processing

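No log2 fold change of a member that passed the test turned its direction under any setting. Fitting only the 6 libraries contrasted left 3 calls of 5 in the MLPH clone, 2 of 5 in the RHBDD2 clone and 13 of 21 between clones. Without the 5 libraries numbered 1, the MLPH clone had 3 calls, and with no filter on low values the RHBDD2 clone had 3. With each library left out in turn, the members called numbered 1 to 3 in the C9orf89 clone, 3 to 5 in the MAGI2 clone, 3 to 5 in the MLPH clone, 2 to 5 in the RHBDD2 clone, 17 to 22 between clones and 6 to 7 across the 5 groups. The other settings kept each count within 1.5 times, the counts over the kidney factors, paralogs and signals included. Deviations from the group means had a median correlation of 0.0856 in pairs with equal numbers (30 pairs, all over 0, the lowest 0.00103, and 12 over 0.1) and −0.0887 in the others (60 pairs, 20 over 0). Of the 15 libraries, 12 correlated best on average with their own number. This is a hint from the data of an effect shared by number, but since not every pair was over 0.1 the libraries were not treated as paired. With the number as a replicate block, 2, 5, 5 and 5 members were called in the C9orf89, MAGI2, MLPH and RHBDD2 clones, 23 between clones and 7 across groups. The block added the calls of SIX2 in the MLPH clone against the MAGI2 clone (adjusted p = 0.0289) and the C9orf89 clone (0.00583).

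LHX1, PAX2 and EYA1 rest on 35 to 262 fragments per library, and PAX8 on at most 3. A fall of PAX8, or a change within so few fragments, was therefore not detectable at this depth.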
